A study of Homo sapiens with 12 samples.

Results

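The genes described here are the working parts of the unfolded protein response, the programme that cells run when unfolded protein builds up in the endoplasmic reticulum (ER), together with genes driven by its transcription factor ATF4. A list of 36 genes was matched by symbol to the protein-coding intervals of the deposited count table, and 35 of them were used, out of 44341 gene intervals. CANX, the ER chaperone calnexin, was left out because its interval reached over 100 kb past the gene. The 35 genes were read as 3 arms: 18 in the ATF4 arm, 7 in the XBP1 arm and 10 in the ATF6 arm. All 35 passed the filter on low counts.

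The cells were A172, an adherent human glioblastoma line listed as WT, and every library came from this 1 line. Each well received 3 µL of a 20 µM siRNA with 9 µL of Lipofectamine 2000 on day 1 after seeding, the transfection mix was replaced after 6 h, and RNA was sent for sequencing on day 2. A scrambled siRNA was the control (n = 4 libraries), and a pair of siRNAs named for uc.110, a transcribed ultraconserved region, made up the other groups, siRNA-1 (n = 4) and siRNA-2 (n = 4). The 12 libraries include none of untransfected cells, so siRNA transfection with lipid was common to all of them. Nothing in the labels ties the 4 libraries of a group to separate cultures; p-values therefore reflect the spread among these libraries, which may be technical.

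A trio of membrane proteins senses unfolded protein in the ER. PERK (EIF2AK3) phosphorylates the initiation factor eIF2, which slows translation in general while favouring that of ATF4. IRE1 (ERN1) splices the XBP1 transcript into the form that encodes an active factor, and ATF6 is cut in the Golgi to free its transcription factor domain. ATF4 raises amino acid supply and stress regulators, and XBP1 and ATF6 raise chaperones and the machinery that removes misfolded protein. Other kinases also phosphorylate eIF2, so ATF4 target genes can respond without ER stress, a setting called the integrated stress response. Only RNA amounts were measured here: translation of ATF4, phosphorylation of eIF2, splicing of XBP1 and cutting of ATF6 were not.

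The promoters of several members hold the published binding motifs of these factors, and they are shown so that the arms can be compared by sequence. RefSeq promoter windows of GRCh38.p14, reaching from 250 bases before to 50 after each annotated start, were matched by symbol for 32 of the 35 genes. Both strands were searched for the amino acid response motif TGATGNAA (bound by ATF4 with a C/EBP partner), the ER stress element (CCAAT and CCACG with any 9 bases between; bound by ATF6 with NF-Y), the second ER stress element (ATTGG and CCACG with any 1 base between), and the XBP1 motif TGACGTGG. The amino acid response motif was in 3.62% of all 35116 windows. Counted by gene, since a gene can have several windows, it was in 3.18% of tested protein-coding genes with a window. Of the 32 matched members, with 46 windows, 5 held it, 4 of them in the ATF4 arm. Around those matches, with the matching 8 bases in capitals, the gene strand reads 5′ to 3′ as follows; a match that begins with TT lies on the opposite strand, and that of SLC3A2 lies after the annotated start.
ASNS, chr7:97872458-97872487, minus strand: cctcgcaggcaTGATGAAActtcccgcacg
ATF3, chr1:212565205-212565234, plus strand: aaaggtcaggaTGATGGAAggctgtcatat
CHAC1, chr15:40953251-40953280, plus strand: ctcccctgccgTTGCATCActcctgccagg
SLC3A2, chr11:62881725-62881748, plus strand: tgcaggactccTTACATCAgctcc
HERPUD1, chr16:56931955-56931984, plus strand: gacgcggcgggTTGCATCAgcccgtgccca

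The ER stress element was in 0.0769% of all windows, 27 in number, and in 0.154% of tested protein-coding genes with a window. Of the 32 matched members 6 held it, 5 of them in the ATF6 arm. The second element was in 0.0541% of windows, in 0.103% of those protein-coding genes and in 2 members, SDF2L1 and HERPUD1. No member's window held the XBP1 motif, which was in 0.729% of windows and 1.15% of those protein-coding genes. Capitals mark the match, which lies on the opposite strand where it begins with CG.
HSPA5, chr9:125241385-125241414, minus strand: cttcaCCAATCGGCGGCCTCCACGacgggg
HSP90B1, chr12:103930211-103930240, plus strand: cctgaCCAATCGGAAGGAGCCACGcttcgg
HSP90B1, chr12:103930316-103930345, plus strand: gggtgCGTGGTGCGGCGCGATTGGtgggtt
CALR, chr19:12938379-12938408, plus strand: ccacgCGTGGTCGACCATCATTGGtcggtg
CRELD2, chr22:49918549-49918578, plus strand: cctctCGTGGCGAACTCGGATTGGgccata
PDIA6, chr2:10812847-10812876, minus strand: ccggaCCAATGAGCCGCAGCCACGgcttgg
XBP1, chr22:28800597-28800626, minus strand: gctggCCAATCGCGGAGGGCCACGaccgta
HERPUD1, chr16:56932016-56932045, plus strand: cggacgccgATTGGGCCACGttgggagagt
SDF2L1, chr22:21642105-21642134, plus strand: cctcggaagCGTGGACCAATcaaaaccctc
A match describes the letters only, and no binding was measured.

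Libraries held 42742474 to 52902396 reads in gene intervals. Ribosomal RNA made up 1.70% to 5.09% of the reads in 10 libraries; the share was 8.58% for replicate 2 of siRNA-2 and 15% for replicate 3 of siRNA-1. Reads in the uc.110 interval numbered 11 over all scrambled libraries, 5 over siRNA-1 and 7 over siRNA-2, with no library above 6, so its depletion could not be assessed at this depth. The ratio to scrambled was 0.466 for siRNA-1 (exact 95% interval 0.127 to 1.45, counting error only) and 0.60 for siRNA-2 (0.197 to 1.70). Of the markers of the line, VIM, NES, CD44 and EGFR were at 152 CPM or more (CPM, reads per 1000000 reads after TMM scaling), SOX2, GFAP and OLIG2 were low (4.25 to 17.1 CPM), CDKN2A was at most 0.878 CPM, and S100B had at most 1 read. VIM was called lower, and GFAP and OLIG2 higher, with both siRNAs. Of the markers of blood, endothelial, neuronal, oligodendrocyte and epithelial cells that were measured, SYN1 (86.9 to 149 CPM) and KRT5 (8.08 to 39 CPM) were higher with both siRNAs, and the others stayed at or under 5.45 CPM; their part in the results was not tested. Scrambled replicate 1 had the highest value of the scrambled libraries for 8 of 8 interferon response genes, with a median of 1.98 times the others, and all 8 were called higher with both siRNAs. Among the 35 genes that library was the highest scrambled library for 6 and the lowest for 12.

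A gene was called changed at a Benjamini-Hochberg adjusted p under 0.05 in edgeR's quasi-likelihood test over 24930 genes, and values per library are CPM. Both siRNAs are compared with the same 4 scrambled libraries, so the resulting pair of columns is not independent. Of the 35 genes, 18 were higher and 9 lower with siRNA-1, where 53.3% of all genes tested were called (28.5% higher and 24.8% lower). With siRNA-2, 20 were higher and 8 lower, where 56% of all genes were called (29.9% higher and 26.1% lower). The median log2 fold change of the 35 genes was 0.11 with siRNA-1 and 0.15 with siRNA-2, beside 0.01 for all genes in both. The members are mostly abundant: among protein-coding genes with an average log2 CPM of at least 4, 39.8% were higher and 33.8% lower with siRNA-1, and 37.9% were higher and 37.9% lower with siRNA-2. Members were higher in 51.4% and 57.1%, and lower in 25.7% and 22.9%. Only VLDLR with siRNA-1, and ATF3 and VLDLR with siRNA-2, rose at least 2-fold and were called, while 7.46% and 8.72% of all genes were called with a change of that size. With protein-coding intervals alone in the scaling and fit, the siRNA-1 split was 12 higher and 11 lower in place of 18 and 9. The plot of fold changes by gene shows this mixture: the 6 largest rises with siRNA-2 are all of ATF4 arm genes, and EDEM1 of the XBP1 arm and ASNS of the ATF4 arm lie furthest to the left. Differences between the arms were not tested. In bulk RNA, fewer cells of a kind and less RNA per cell cannot be told apart.

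**Figure D1:**
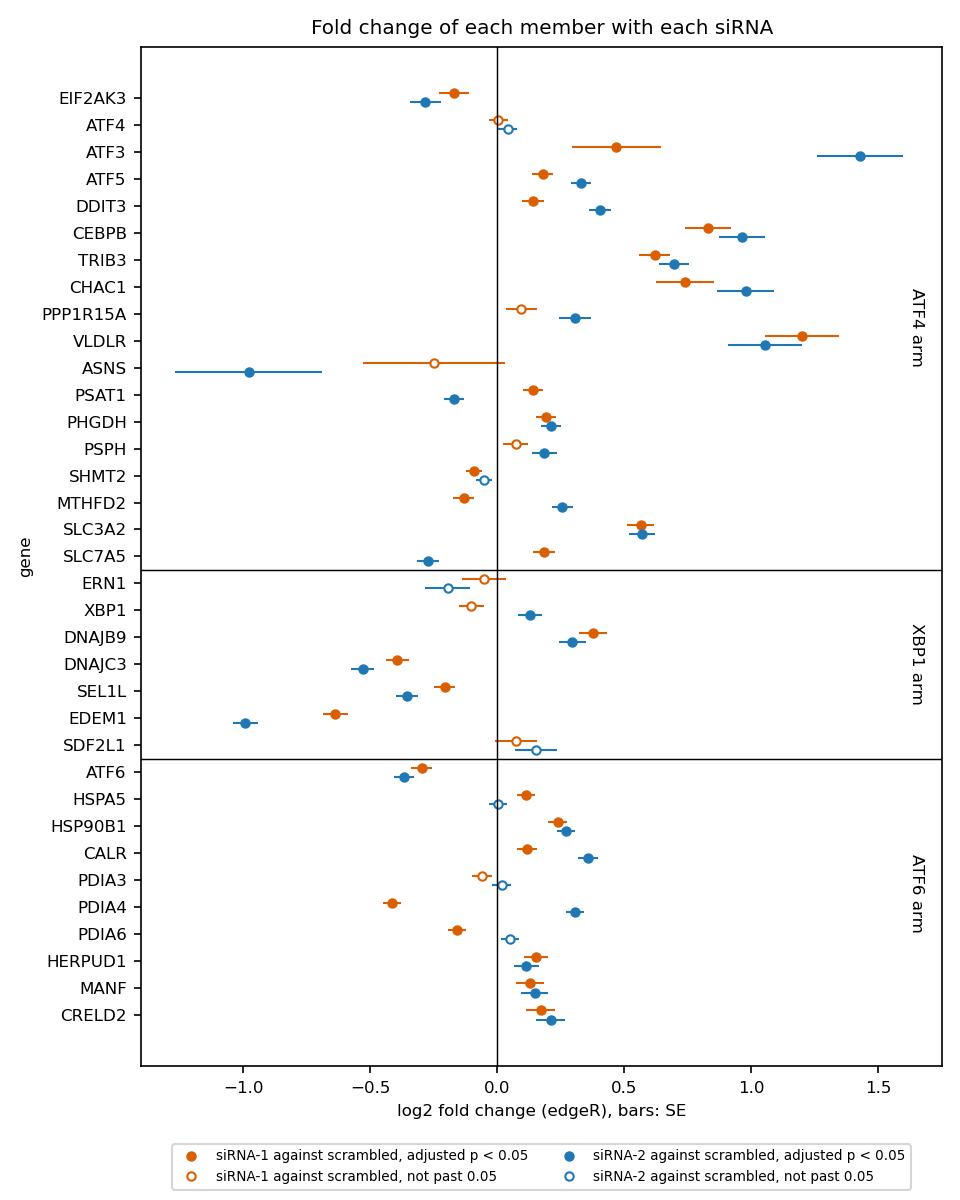
Log2 fold change of each of the 35 members for siRNA-1 and for siRNA-2, each against scrambled (x axis; bars are standard errors), by arm. Filled points have an adjusted p under 0.05. ATF3 reaches 1.43 with siRNA-2, EDEM1 reaches -0.99, and the whole ATF4 interval, which holds reads of other genes, sits at 0.00 and 0.04.

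The stress sensors did not rise with either siRNA. EIF2AK3 (PERK) stood at 28.5, 31.2, 34 and 31.3 CPM in the scrambled libraries, 27.7, 28.3, 29.9 and 25.3 under siRNA-1, and 24.2, 25.9, 24.5 and 28.1 under siRNA-2. Its siRNA-2 libraries were all below the scrambled ones, and those of siRNA-1 overlapped them. It fell by 0.17 ± 0.06 (log2, SE; adjusted p = 0.0201) with siRNA-1 and by 0.28 ± 0.06 (adjusted p = 0.000266) with siRNA-2. The siRNA-1 call was lost without scrambled replicate 3 (adjusted p = 0.0963) and without siRNA-1 replicate 4 (0.0981). An antisense-strand long noncoding RNA, LOC101928371, lies across the gene and could hold up to 50.9% of its reads.

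ATF6 fell with both siRNAs. It measured 90.9, 90.2, 97.9 and 99.4 CPM in scrambled cells, 76, 78.3, 78.6 and 75.2 under siRNA-1, and 69.7, 72.1, 77.1 and 74.5 under siRNA-2, and no library of either siRNA reached the scrambled range. The log2 fold changes were -0.30 ± 0.04 (adjusted p = 8.82e-07) and -0.37 ± 0.04 (2.48e-08). ERN1 (IRE1) was scarce, at 5.70, 7.13, 6.17 and 6.46 CPM in scrambled, 6.47, 5.78, 6.33 and 5.99 under siRNA-1, and 5.31, 5.79, 5.37 and 5.75 under siRNA-2. Its groups overlapped, and neither difference was called (log2 fold changes -0.05 ± 0.09 and -0.20 ± 0.09, adjusted p = 0.645 and 0.0618). The siRNA-2 value of ERN1 passed the threshold in 7 of the alternative settings, among them those without scrambled replicate 1 (adjusted p = 0.0175), siRNA-1 replicate 2 (0.044) or siRNA-1 replicate 3 (0.047).

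The reads of the whole interval counted for ATF4 itself were level across the groups, but the interval also holds reads of other genes. The interval measured 97, 88.6, 90.3 and 95 CPM in scrambled cells, 93.9, 94.5, 91.5 and 92.1 under siRNA-1, and 99.9, 95.2, 94.5 and 92.5 under siRNA-2. The groups overlapped, with log2 fold changes of 0.00 ± 0.04 (adjusted p = 0.937) and 0.04 ± 0.04 (adjusted p = 0.359). The interval counted for ATF4, chr22:39514494-39533170, is 18677 bases long, whereas the RefSeq gene spans 39520559 to 39522686. It contains RPS19BP1, which held up to 18.3% of its reads and was lower with both siRNAs, and it overlaps MIEF1. With the RPS19BP1 reads taken off, a check added after the data were seen, ATF4 was at 0.04 ± 0.04 with siRNA-1 (adjusted p = 0.402) and was called higher with siRNA-2 at 0.12 ± 0.04 (adjusted p = 0.0141). Taking off all MIEF1 reads too may remove more than the overlap holds; ATF4 was then at -0.06 ± 0.10 and 0.39 ± 0.10 (adjusted p = 0.00407).

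The intervals of the 4 other transcription factors of the ATF4 arm were all called higher with both siRNAs. The siRNA-1 calls of ATF3 and DDIT3 were lost in some settings. Reads of CEBPB and ATF5 cannot be separated from those of overlapping genes. CEBPB, a C/EBP factor that pairs with ATF4, measured 34.4, 31.6, 33.7 and 32.4 CPM in scrambled cells, 53.7, 52.7, 65.4 and 62.8 under siRNA-1, and 75.9, 60.5, 59.8 and 61.4 under siRNA-2. Every siRNA library lay far above every scrambled one. The log2 fold changes were 0.83 ± 0.09 (adjusted p = 5.49e-06) and 0.96 ± 0.09 (1.12e-06), and the difference between the siRNAs, 0.13 ± 0.09, was not called (adjusted p = 0.286). The antisense gene CEBPB-AS1 shares this interval and had as many reads, so reads of the pair cannot be separated.

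ATF3, a stress-induced repressor whose promoter window holds the ATF4 motif shown above, was scarce in scrambled cells and differed most between the siRNAs. It stood at 3.52, 3.90, 3.55 and 3.04 CPM in scrambled, 3.85, 5.30, 6.14 and 4.11 under siRNA-1, and 12.7, 8.61, 8.18 and 8.27 under siRNA-2. All siRNA-2 libraries exceeded all others, whereas the lowest siRNA-1 library was below the highest scrambled one. ATF3 rose by 1.43 ± 0.17 with siRNA-2 (log2; adjusted p = 3.96e-06) and exceeded siRNA-1 by 0.96 ± 0.16 (adjusted p = 0.000402). Without siRNA-2 replicate 1, the highest library, the rise was 1.26. The siRNA-1 rise of 0.47 ± 0.18 (adjusted p = 0.0365) was lost when any 1 of the 4 scrambled libraries, siRNA-1 replicate 2 or siRNA-1 replicate 3 was left out (adjusted p up to 0.128).

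DDIT3, which encodes the pro-apoptotic factor CHOP, was at 43.7, 44.5, 41 and 41.7 CPM in scrambled cells, 47.4, 48.1, 46.8 and 46.1 under siRNA-1, and 60.4, 57.3, 53.5 and 54.9 under siRNA-2. The groups stood in 3 separate steps. The rises were 0.14 ± 0.04 (adjusted p = 0.00917) and 0.40 ± 0.04 (1.79e-08), and siRNA-2 exceeded siRNA-1 by 0.26 ± 0.04 (4.12e-05). The siRNA-1 rise was lost without siRNA-1 replicate 2 (adjusted p = 0.073) and with protein-coding intervals only (0.0578). The interval overlaps MARS1, which had more reads and was not called with either siRNA, and up to 100% of the DDIT3 reads could be shared with it. ATF5 rose by 0.18 ± 0.04 and 0.33 ± 0.04, but its interval lies across IL4I1 and NUP62, which had more reads and also rose, so its own reads cannot be separated.

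The 4 genes grouped here as stress effectors and feedback of the ATF4 arm were TRIB3, CHAC1, VLDLR and PPP1R15A. Their median log2 fold changes of 0.68 and 0.84 were the largest among the groups of members formed by role. That ranking depends on how the members were grouped. TRIB3, a pseudokinase that restrains ATF4 output, measured 14.8, 15.2, 14.7 and 13.5 CPM in scrambled cells, 20.8, 21.7, 23.7 and 23.3 under siRNA-1, and 26.2, 23.5, 22.6 and 22 under siRNA-2. All 8 siRNA libraries were above the scrambled ones, by 0.62 ± 0.06 (adjusted p = 3.38e-09) and 0.70 ± 0.06 (3.20e-10) on the log2 scale. The interval of TRIB3 overlapped no other tested gene.

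CHAC1, which breaks down glutathione, had few reads: 2.94, 3.14, 3.45 and 3.66 CPM in scrambled, 4.80, 4.54, 6.31 and 6.37 under siRNA-1, and 6.68, 6.45, 6.41 and 6.46 under siRNA-2. The siRNA groups lay wholly above scrambled, and siRNA-1 fell into a lower and a higher pair of libraries. CHAC1 rose by 0.74 ± 0.11 (adjusted p = 5.00e-06) and 0.98 ± 0.11 (4.36e-08). The siRNAs differed by 0.24 ± 0.11 (adjusted p = 0.0934), which passed the threshold without siRNA-1 replicate 3 (0.0398) or 4 (0.0378). VLDLR, a lipoprotein receptor, had the largest siRNA-1 rise of the 35 genes: 9.47, 7.13, 7.51 and 11.3 CPM in scrambled, 21.6, 19.6, 17.4 and 22.7 under siRNA-1, and 16.5, 18.2, 20.9 and 18 under siRNA-2. The scrambled libraries were spread widely but stayed below all others. The log2 fold changes of VLDLR were 1.20 ± 0.15 (adjusted p = 3.35e-05) and 1.05 ± 0.15 (8.20e-05), and up to 24.2% of its reads could belong to LOC105375957, which also rose. PPP1R15A, the GADD34 subunit that brings a phosphatase to eIF2, rose with siRNA-2 by 0.31 ± 0.06 (adjusted p = 0.000147). It was not called with siRNA-1 (0.09 ± 0.06, adjusted p = 0.211). TULP2 overlaps its interval on the opposite strand, had almost the same mean count and was at 0.09 and 0.30. The reads of the pair therefore cannot be separated.

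**Figure D2:**
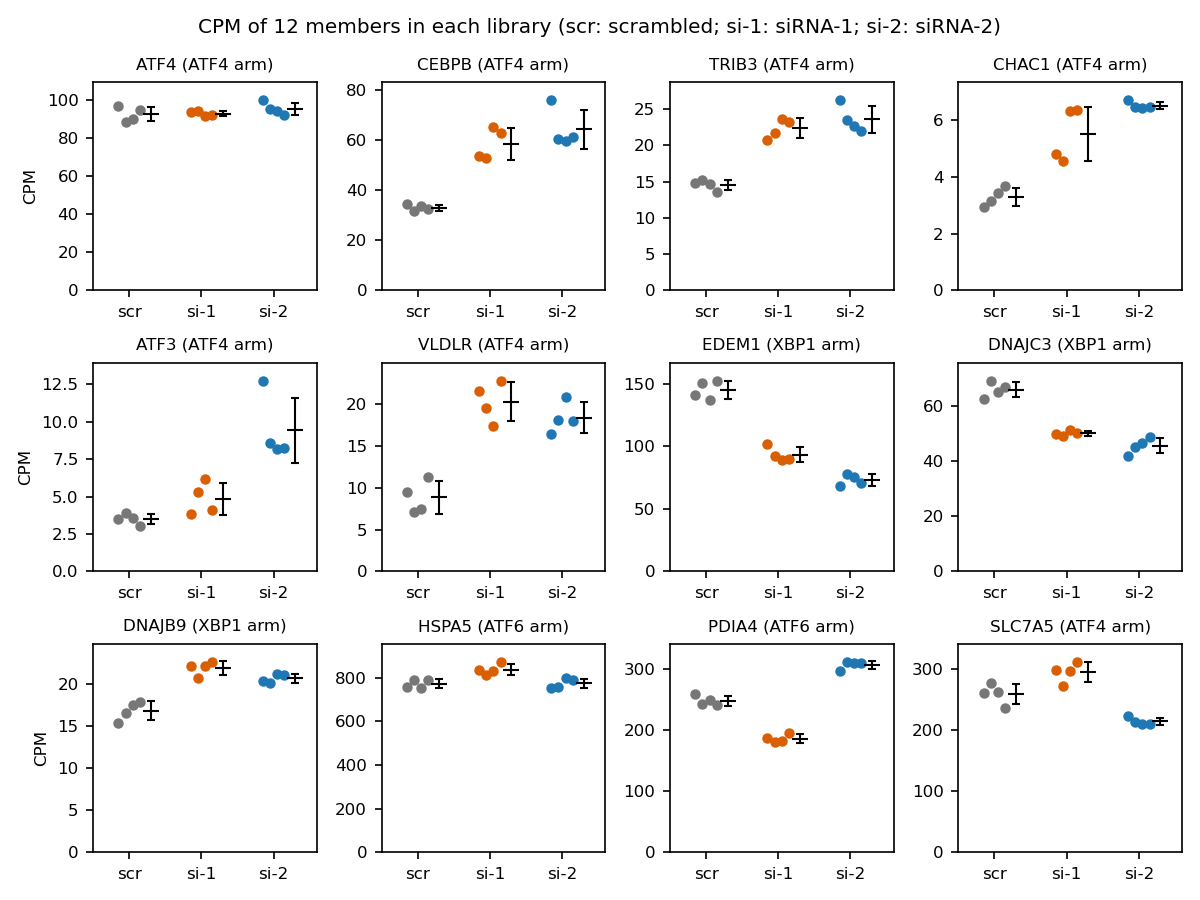
CPM (y axis, from 0) of 12 members in each of the 4 scrambled, 4 siRNA-1 and 4 siRNA-2 libraries, with the group mean and SD beside the points. CEBPB, TRIB3, CHAC1 and VLDLR lie above scrambled with both siRNAs, EDEM1 and DNAJC3 lie below, and PDIA4 and SLC7A5 lie on opposite sides.

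The genes of amino acid supply did not move together. SLC3A2, the heavy chain of several amino acid transporters, measured 129, 131, 127 and 117 CPM in scrambled, 176, 177, 191 and 202 under siRNA-1, and 207, 183, 180 and 179 under siRNA-2. It was higher in 8 of 8 siRNA libraries, by 0.56 ± 0.05 (adjusted p = 1.39e-08) and 0.57 ± 0.05 (1.06e-08), and did not differ detectably between them (0.00 ± 0.05, adjusted p = 0.965). Its light-chain partner SLC7A5 (LAT1) measured 260, 276, 261 and 236 CPM in scrambled, 297, 271, 296 and 310 under siRNA-1, and 223, 213, 210 and 210 under siRNA-2. SLC7A5 was thus called higher with siRNA-1 (0.18 ± 0.04, adjusted p = 0.00109) and lower with siRNA-2 (-0.27 ± 0.04, 1.02e-05), and siRNA-2 was below siRNA-1 by a log2 difference of -0.46 ± 0.04 (1.72e-08).

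ASNS, asparagine synthetase, is a standard ATF4 target and was the member with the widest spread relative to its mean among the scrambled and among the siRNA-1 libraries. Its interval held 16.6, 34.1, 36 and 18.5 CPM in scrambled, 27.6, 16.2, 18.5 and 26.4 under siRNA-1, and 14.5, 12.7, 13.4 and 13.0 under siRNA-2. The scrambled and siRNA-1 libraries each split into a high and a low pair, while siRNA-2 was uniformly low. The overlapping gene LOC107986827, on the same strand, had 24, 786, 943 and 116 reads in scrambled replicates 1 to 4, 544, 65, 54 and 464 under siRNA-1, and 63, 33, 25 and 73 under siRNA-2, and was high in the same libraries.

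With the LOC107986827 reads taken off, a check added after the data were seen, ASNS stood at 16.0, 17.2, 16.7 and 16.1 CPM in scrambled, 15.5, 14.8, 17.2 and 16.6 under siRNA-1, and 13.0, 12.1, 12.9 and 11.6 under siRNA-2. The split within groups was gone, siRNA-1 overlapped scrambled, and siRNA-2 lay wholly below. The log2 fold change with siRNA-2 went from -0.98 ± 0.29 (adjusted p = 0.016) to -0.41 ± 0.06 (2.15e-06), and that with siRNA-1 from -0.25 ± 0.28 (adjusted p = 0.494) to -0.04 ± 0.06 (0.586). ASNS carries the ATF4 motif in its promoter window, as ATF3, CHAC1 and SLC3A2 do, and was the 1 of these 4 that did not rise. LOC107986827 overlaps the ASNS interval only in part, so taking off all its reads may remove more than the overlap holds. The readthrough gene CZ1P-ASNS covers almost the same interval as ASNS and was not taken off.

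**Figure D3:**
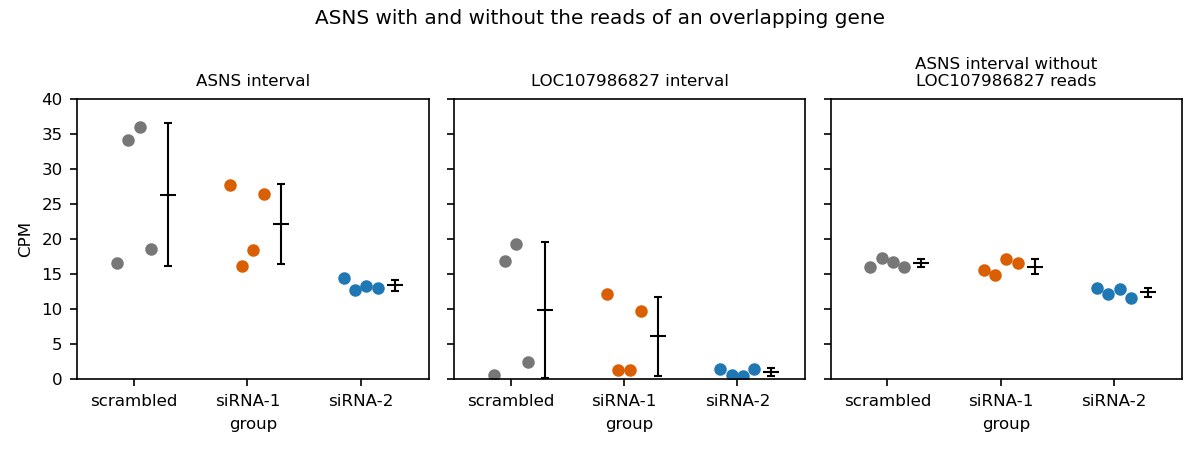
CPM (y axis) in each library for the ASNS interval, for LOC107986827 and for ASNS after its reads were taken off, with mean and SD per group. The scrambled range narrows from 16.6 to 36 CPM to 16.0 to 17.2 CPM, and the siRNA-2 libraries stay below it at 11.6 to 13.0 CPM.

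The 5 serine and one-carbon enzymes changed little and in mixed directions. PHGDH, the first enzyme of serine synthesis, rose with both siRNAs (0.19 ± 0.04 and 0.21 ± 0.04), and PSPH, the last, rose with siRNA-2 (0.19 ± 0.05) and was at 0.07 ± 0.05 with siRNA-1. PSAT1, the middle enzyme, was 65.4 to 70.3 CPM in scrambled, 72.8 to 77.3 under siRNA-1 and 58.0 to 63.6 under siRNA-2. The 3 ranges did not overlap, and PSAT1 was called higher with siRNA-1 (0.14 ± 0.04, adjusted p = 0.00321) and lower with siRNA-2 (-0.17 ± 0.04, 0.00054). The siRNA-1 call was lost without the 2 libraries richest in ribosomal RNA (adjusted p = 0.0559).

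MTHFD2, a mitochondrial folate enzyme, showed the reverse. It was 60.2 to 60.6 CPM in scrambled, 52.1 to 58.6 under siRNA-1 and 67.3 to 75.5 under siRNA-2, again with no overlap. It was lower with siRNA-1 (-0.13 ± 0.04, adjusted p = 0.0105; 0.0568 without siRNA-1 replicate 1) and higher with siRNA-2 (0.26 ± 0.04, 1.01e-05). SHMT2, which feeds it, was at -0.09 ± 0.03 with siRNA-1 (adjusted p = 0.0204) and -0.05 ± 0.03 with siRNA-2 (0.173). NDUFA4L2, on the opposite strand, had almost the same mean count and was at -0.09 and -0.05. The reads of that pair cannot be separated. In the ATF4 arm as a whole 11 of 18 genes were higher and 3 lower with siRNA-1. With siRNA-2, 12 were higher and 4 lower, and the medians were 0.16 and 0.28. The shares higher were 61.1% and 66.7%, beside 28.5% and 29.9% of all genes and 39.8% and 37.9% of abundant protein-coding genes. Those lower were 16.7% and 22.2%, beside 24.8% and 26.1% of all genes and 33.8% and 37.9% of abundant ones.

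In the XBP1 arm 3 of 7 genes were lower and 1 higher with siRNA-1, and 3 were lower and 2 higher with siRNA-2, with medians of -0.10 and -0.20. The share lower, 42.9% in both, was near the 33.8% and 37.9% of abundant protein-coding genes, so the count alone does not set the arm apart. EDEM1, a lectin that sends misfolded glycoproteins to degradation, fell most. It measured 141, 151, 137 and 152 CPM in scrambled, 102, 92.7, 89.5 and 89.5 under siRNA-1, and 68.1, 78.2, 75.5 and 70.5 under siRNA-2. The groups formed 3 separate steps, scrambled highest and siRNA-2 lowest. EDEM1 fell by 0.64 ± 0.05 (adjusted p = 1.96e-10) and by 0.99 ± 0.05 (9.99e-14) on the log2 scale, and siRNA-2 was below siRNA-1 by -0.35 ± 0.05 (6.80e-06).

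DNAJC3 (p58IPK), an ER co-chaperone that also restrains PERK and other eIF2 kinases, measured 62.3, 68.8, 65.2 and 66.7 CPM in scrambled, 49.9, 49, 51.1 and 50.3 under siRNA-1, and 42, 45, 46.6 and 48.5 under siRNA-2. The same 3 steps were seen, with log2 fold changes of -0.39 ± 0.04 (adjusted p = 4.22e-08) and -0.53 ± 0.04 (1.88e-10). Its difference between the siRNAs, -0.14 ± 0.05 (adjusted p = 0.0213), was lost without siRNA-1 replicate 3 (0.0694), siRNA-2 replicate 1 (0.0972) or siRNA-2 replicate 2 (0.0534). SEL1L, the scaffold of the HRD1 ubiquitin ligase, fell by 0.21 ± 0.04 and 0.36 ± 0.04 (adjusted p = 0.000206 and 9.11e-08). TRIB3, DNAJC3 and SEL1L are among the 15 members whose intervals overlap no other tested gene.

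DNAJB9 (ERdj4), an ER co-chaperone and a standard XBP1 target, went the other way. It measured 15.3, 16.6, 17.5 and 17.8 CPM in scrambled, 22.1, 20.7, 22.1 and 22.5 under siRNA-1, and 20.3, 20.1, 21.1 and 21 under siRNA-2. All 8 siRNA libraries were above scrambled, by 0.38 ± 0.05 (adjusted p = 1.63e-06) and 0.30 ± 0.05 (3.97e-05). XBP1 itself was at 29, 33.3, 31.7 and 31.5 CPM in scrambled, 28.6, 28, 29.9 and 30.4 under siRNA-1, and 33.5, 33.6, 35.1 and 35.2 under siRNA-2. Its siRNA-2 libraries lay just above the scrambled range and its siRNA-1 libraries overlapped it.

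XBP1 was called higher with siRNA-2 (0.13 ± 0.05, adjusted p = 0.0247) but not under 11 alternative settings; without scrambled replicate 1 its fold change was 0.08 (adjusted p = 0.191). The other libraries whose removal ended the call were siRNA-1 replicates 2 and 3 and siRNA-2 replicates 3 and 4. With siRNA-1 XBP1 was at -0.10 ± 0.05 (adjusted p = 0.0798), called lower without scrambled replicate 1 (0.00742) or siRNA-1 replicate 3 (0.0413), and siRNA-2 exceeded siRNA-1 by 0.23 ± 0.05 (0.000529). SDF2L1, a partner of HSPA5 with the second ER stress element in its promoter window, was not called with either siRNA (0.07 ± 0.08 and 0.15 ± 0.08, adjusted p = 0.471 and 0.114), though the latter passed without siRNA-2 replicate 1 (0.0483).

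The ER chaperones of the ATF6 arm were the most abundant members. Per kilobase of exon, CALR stood at 555 CPM in scrambled cells, HSPA5 at 198, HSP90B1 at 136 and PDIA6 at 110, while ATF4 stood at 36.9 and ERN1 at 0.586. HSPA5 (BiP), the main ER chaperone and the usual reporter of ER stress, hardly changed. It measured 758, 789, 754 and 790 CPM in scrambled, 834, 810, 832 and 870 under siRNA-1, and 754, 759, 797 and 788 under siRNA-2. The siRNA-1 libraries lay above the other groups, which overlapped. HSPA5 rose by 0.11 ± 0.04 with siRNA-1 (adjusted p = 0.00886) and was at 0.00 ± 0.04 with siRNA-2 (adjusted p = 0.951). The siRNA-1 call was lost without scrambled replicate 1 (adjusted p = 0.0753), without siRNA-1 replicate 3 (0.0605) and with protein-coding intervals only (0.0763).

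HSP90B1 (GRP94) measured 632, 613, 654 and 664 CPM in scrambled, 757, 765, 729 and 771 under siRNA-1, and 742, 770, 794 and 785 under siRNA-2. Both siRNA groups lay wholly above scrambled, at 0.24 ± 0.04 (adjusted p = 4.75e-06) and 0.27 ± 0.04 (6.05e-07). CALR, the lectin chaperone calreticulin, measured 1572, 1516, 1482 and 1458 CPM in scrambled, 1684, 1528, 1607 and 1721 under siRNA-1, and 1871, 1921, 1954 and 1981 under siRNA-2. Its siRNA-2 libraries stood clear of all others, while siRNA-1 overlapped scrambled. CALR rose by 0.36 ± 0.04 with siRNA-2 (adjusted p = 2.35e-08). Its siRNA-1 rise of 0.12 ± 0.04 (adjusted p = 0.0146) was lost without scrambled replicate 4 (0.0552), siRNA-1 replicate 3 (0.0534) or siRNA-1 replicate 4 (0.0507). With protein-coding intervals only the rise was also lost (0.091).

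Among the disulfide isomerases, which form and rearrange disulfide bonds in the ER, PDIA4 moved in opposite directions with the siRNAs. PDIA4 (ERp72) measured 259, 243, 249 and 242 CPM in scrambled, 187, 180, 182 and 196 under siRNA-1, and 297, 311, 310 and 309 under siRNA-2. The siRNA-1 libraries were all below the scrambled range and the siRNA-2 libraries all above it. PDIA4 fell by 0.41 ± 0.04 with siRNA-1 (adjusted p = 4.63e-10) and rose by 0.31 ± 0.04 with siRNA-2 (6.86e-08), and the difference between the siRNAs was 0.72 ± 0.04 (1.21e-13). Its interval, chr7:149003051-149028690, overlaps no other tested gene. PDIA6 was lower with siRNA-1 (-0.16 ± 0.04, adjusted p = 0.000494) and not called with siRNA-2 (0.05 ± 0.04, 0.221), and PDIA3 was called with neither (-0.06 ± 0.04 and 0.02 ± 0.04, adjusted p = 0.19 and 0.725; the former passed without scrambled replicate 1, 0.0308, or 2, 0.0326).

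Of the remaining ATF6 arm genes, CRELD2, a secreted ER stress protein, measured 27.6, 28.2, 29.4 and 25.1 CPM in scrambled, 34.2, 30, 29.2 and 30.9 under siRNA-1, and 29.8, 31.4, 32.5 and 33.9 under siRNA-2. Its siRNA-2 libraries lay just above scrambled, and siRNA-1 overlapped it. CRELD2 rose by 0.17 ± 0.06 (adjusted p = 0.014) and 0.21 ± 0.06 (0.00285). The siRNA-1 call was lost without scrambled replicate 1 or 4 or without siRNA-1 replicate 1 (up to 0.0736), and with protein-coding intervals only (0.0501). MANF, a secreted survival factor, was at 0.13 ± 0.05 (adjusted p = 0.0467) and 0.15 ± 0.05 (0.0228). HERPUD1, a membrane protein of ER-associated degradation, was at 0.15 ± 0.05 (0.0106) and 0.11 ± 0.05 (0.0482).

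Calls for MANF with siRNA-1 and HERPUD1 with siRNA-2 sat at the threshold and were lost in 15 and 16 alternative settings. Libraries whose removal ended the MANF call with siRNA-1 were any of the 4 scrambled ones, siRNA-1 replicates 1 and 4 and siRNA-2 replicates 2 and 3 (adjusted p up to 0.161). For MANF with siRNA-2 they were scrambled replicates 2 and 4 and siRNA-2 replicate 4 (up to 0.115). For HERPUD1 they were scrambled replicates 1 and 2 and siRNA-1 replicate 2 with siRNA-1 (up to 0.119). With siRNA-2 they were scrambled replicates 1 and 2, any siRNA-1 library and siRNA-2 replicates 2, 3 and 4 (up to 0.291). In the ATF6 arm 6 of 10 genes were higher and 3 lower with siRNA-1. With siRNA-2, 6 were higher and 1 lower, and the medians were 0.12 and 0.13. The share higher was 60% in both, beside 28.5% and 29.9% of all genes and 39.8% and 37.9% of abundant protein-coding genes. Those lower were 30% and 10%, beside 33.8% and 37.9% of abundant protein-coding genes. The siRNA-1 count of 6 was 2 without scrambled replicate 1, 3 without scrambled replicate 4 and 1 with protein-coding intervals only. The 6 genes with the ER stress element had log2 fold changes of -0.16 to 0.24 under siRNA-1 and 0.00 to 0.36 under siRNA-2.

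**Figure D4:**
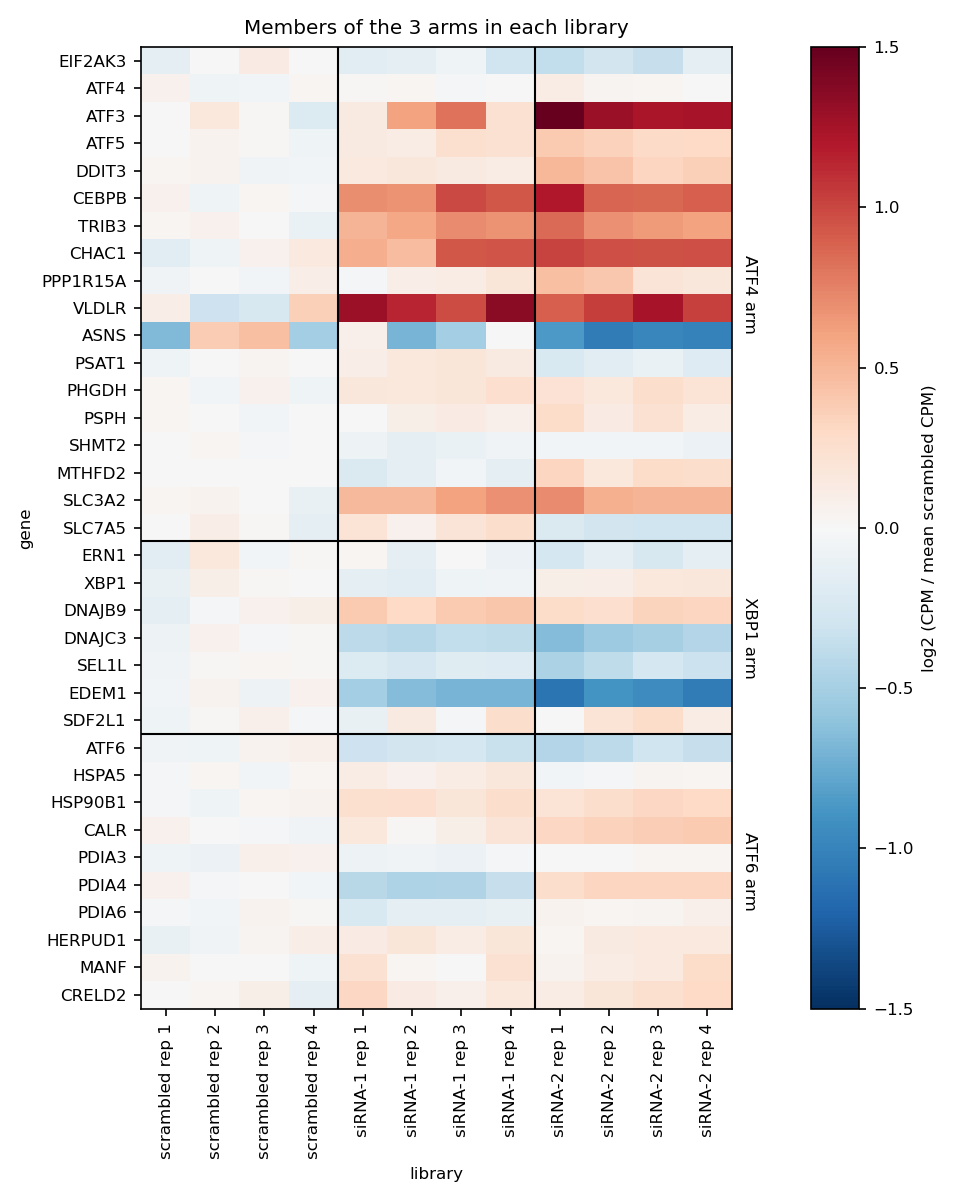
Log2 ratio of CPM to the scrambled mean for the 35 members (rows, by arm) in each of the 12 libraries (columns) (red higher, blue lower). Red rows for CEBPB, TRIB3, CHAC1, VLDLR and SLC3A2 and blue rows for EDEM1, DNAJC3 and ATF6 run through all 8 siRNA libraries, and PDIA4 and SLC7A5 change colour between the siRNAs.

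The siRNAs were also compared with each other in the same fit of all 12 libraries. Of the 35 genes, 9 were higher and 6 lower with siRNA-2 (10 and 7 when the scrambled libraries were left out of the fit), where 32.5% of all genes tested were called (15.7% higher and 16.8% lower). The median of the 35 was 0.04, beside 0.00 for all genes, and no member was called with a difference of 2-fold or more, as 2.16% of all genes were. In the ATF4 arm 5 were higher (ATF3, DDIT3, ATF5, PPP1R15A and MTHFD2) and 2 lower (SLC7A5 and PSAT1). In the XBP1 arm XBP1 was higher, and EDEM1, SEL1L and DNAJC3 were lower. In the ATF6 arm PDIA4, CALR and PDIA6 were higher, and HSPA5 was lower (-0.11 ± 0.04, adjusted p = 0.018). The HSPA5 call was lost without siRNA-1 replicate 4 (adjusted p = 0.0548), siRNA-2 replicate 1 (0.0578) or siRNA-2 replicate 2 (0.0626), and the PPP1R15A call without siRNA-2 replicate 1 (0.0503). PSAT1, MTHFD2, SLC7A5 and PDIA4 were called in opposite directions against scrambled.

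Groups that did not overlap gave much the same picture. Against scrambled, 13 members lay wholly above and 8 wholly below with siRNA-1, where 47.4% of all genes did not overlap (25.2% above and 22.2% below). With siRNA-2, 18 lay wholly above and 9 wholly below, where 51.8% did not (27.7% above and 24% below). Between the siRNAs it was 10 and 7, beside 31.9% (15.7% above and 16.2% below). Among the 15 members overlapping no other tested gene, 7 were called higher and 4 lower with siRNA-1, 8 and 4 with siRNA-2, and 3 and 4 between the siRNAs. Of all genes tested, 53.3%, 56% and 32.5% were called in these comparisons.

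Other genes of these pathways were listed for comparison. Among 15 genes of eIF2 control, 4 were higher and 5 lower for siRNA-1, and 3 were higher and 5 lower for siRNA-2. Shares higher were 26.7% and 20%, beside 39.8% and 37.9% of abundant protein-coding genes, and shares lower 33.3% in both, beside 33.8% and 37.9%. EIF2AK2 (PKR), the eIF2 kinase that binds double-stranded RNA and is itself interferon-induced, stood at 158, 108, 107 and 101 CPM in scrambled, 234, 222, 205 and 211 under siRNA-1, and 198, 235, 224 and 222 under siRNA-2. All siRNA libraries were above all scrambled ones, and scrambled replicate 1, highest for the interferon genes, was the highest scrambled library here too. EIF2AK2 rose by 0.88 ± 0.13 (adjusted p = 0.000328) and 0.89 ± 0.13 (0.000266). Up to 73.7% of its reads could be shared with GPATCH11, which overlaps its interval. EIF2AK4 (GCN2), the kinase that senses uncharged tRNA, fell by 0.43 ± 0.04 and 0.44 ± 0.04. EIF2B4, a subunit of the exchange factor that phosphorylated eIF2 inhibits, rose by 0.54 ± 0.05 and 0.31 ± 0.05. Whether the rise of EIF2AK2 has a part in that of ATF4 arm genes was not tested.

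Of 24 other ATF4 targets tested, 9 were higher and 7 lower for siRNA-1, and 10 were higher and 7 lower for siRNA-2. These shares, 37.5% and 29.2% for siRNA-1 and 41.7% and 29.2% for siRNA-2, were near those of abundant protein-coding genes (39.8% and 33.8%, and 37.9% and 37.9%). CBS, of the transsulfuration pathway, rose by 0.91 ± 0.05 and 1.12 ± 0.05, and GPT2, a mitochondrial aminotransferase, by 0.55 ± 0.05 and 0.46 ± 0.05. SLC7A11, the cystine transporter, fell from 34.4 ± 2.92 CPM (SD, n = 4) to 19.2 ± 1.80 with siRNA-1 and 16.7 ± 0.708 with siRNA-2. Up to 76.6% of the SLC7A11 reads could be shared with SLC7A11-AS1. NIBAN1, a stress-responsive regulator of translation, fell from 99.1 ± 3.16 to 43.3 ± 1.77 and 56.6 ± 2.50 CPM. SLC6A9, a glycine transporter, was higher with siRNA-2 than with siRNA-1 by 1.07 ± 0.10 (adjusted p = 4.27e-07), and all its reads could be shared with CCDC24.

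GDF15, a secreted stress cytokine named here after its values were seen, had the largest rise of these lists. It stood at 37.0, 36.7, 38.7 and 38.4 CPM in scrambled, 109, 142, 190 and 146 under siRNA-1, and 435, 291, 248 and 261 under siRNA-2. The 3 groups did not overlap. GDF15 rose by 1.96 ± 0.22 (adjusted p = 3.21e-05) and 3.03 ± 0.22 (1.11e-06), and siRNA-2 exceeded siRNA-1 by 1.07 ± 0.20 (0.00282).

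The 18 cytosolic aminoacyl-tRNA synthetases tested, several of them ATF4 targets, were also divided. With siRNA-1, 8 were higher and 6 lower, and with siRNA-2, 5 were higher and 8 lower. Shares higher were 44.4% and 27.8%, beside 39.8% and 37.9% of abundant protein-coding genes, and shares lower 33.3% and 44.4%, beside 33.8% and 37.9%. WARS1, which is also interferon-induced, rose from 64.5 ± 1.92 CPM to 113 ± 5.15 and 137 ± 7.11, while LARS1 fell from 181 ± 8.11 to 125 ± 7.56 and 99.9 ± 4.89. Among 33 other ER folding and degradation genes, 12 were higher and 11 lower with siRNA-1. With siRNA-2, 8 were higher and 19 lower, and the medians were -0.02 and -0.14. In this list 36.4% and 24.2% were higher and 33.3% and 57.6% lower, beside those same shares of abundant protein-coding genes. SIL1, a nucleotide exchange factor for HSPA5, rose by 0.71 ± 0.04 and 0.67 ± 0.04. SYVN1 (HRD1), the ligase that SEL1L holds, rose by 0.45 ± 0.05 and 0.57 ± 0.05. By read number, MRPL49 could share all SYVN1 reads, though over 349 bases only.

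EDEM3, of the same family as EDEM1, fell by 0.61 ± 0.05 and 0.67 ± 0.05, and EDEM2, the third of the family, by 0.37 ± 0.04 and 0.32 ± 0.04. The EDEM2 interval overlaps MMP24-AS1-EDEM2 on the same strand, and all EDEM2 reads could be shared with it. DNAJC10, an ER reductase, fell by 0.43 ± 0.05 and 0.65 ± 0.05. CREB3L2, a membrane-bound factor related to ATF6, fell with siRNA-2 by 0.67 ± 0.06 and was at -0.12 ± 0.06 with siRNA-1 (adjusted p = 0.0818), the difference being -0.55 ± 0.06 (4.28e-08). Each list thus held genes that moved far in both directions, as the plot of the other pathway genes shows.

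**Figure D5:**
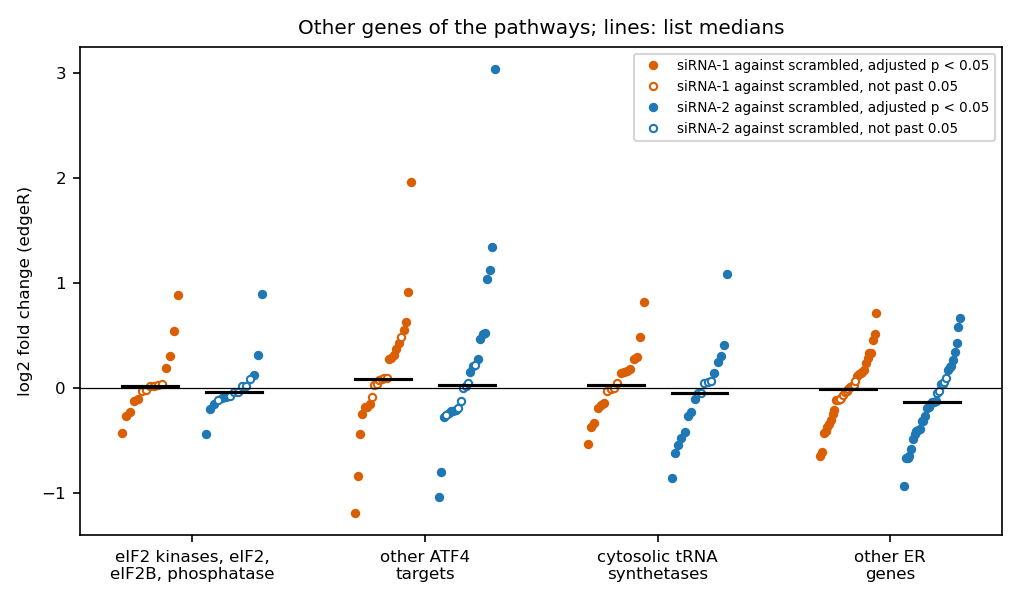
Log2 fold change (y axis) of each gene of the 4 comparison lists with siRNA-1 and siRNA-2 against scrambled; filled points have an adjusted p under 0.05 and black lines are list medians. List medians lie between -0.14 and 0.08, while single genes run from -1.19 (NIBAN1, siRNA-1) to 3.03 (GDF15, siRNA-2).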

How the data were processed

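Per the labels, RNA of 12 libraries of A172 cells was measured by RNA-seq. The authors deposited 1 table of read counts over 49731 genomic intervals, including 962 ultraconserved and random regions. Salmon and hg38 are named per the submitters' processing notes; which tool counted reads per interval, and whether by strand, was not given in the sources used here. Where intervals overlap, a read may count for each. Some pairs on opposite strands had almost the same mean count over the libraries: 7668 for SHMT2 and 7674 for NDUFA4L2, and 1203 for PPP1R15A and 1206 for TULP2. For these pairs at least, the counts were not separated by strand. From the deposited counts, intervals of ribosomal RNA, duplicate copies and intervals over 100 kb past the gene were left out, which left 44341. Counts were filtered (filterByExpr, minimum 10 and total 15; 24930 genes kept), TMM-scaled and tested in edgeR 4.0.16 (R 4.3.3; robust quasi-likelihood F test, two-sided) in 1 fit of the 12 libraries, with a term for group alone. Adjustment was over all genes tested. Depth was 42742474 to 52902396 reads per library.

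The members and lists were chosen with earlier results of these data known. Per-library values are given for the 5 sensors and factors, HSPA5, the 8, 3 and 4 other genes of the ATF4, XBP1 and ATF6 arms with the largest mean absolute log2 fold change, and genes with a called difference of at least 0.5 between the siRNAs; other members by their ranges or fold changes. Of each comparison list, up to 3 genes called higher and 3 called lower by smallest p, and EIF2AK2, could be named. Alternatives were DESeq2 1.42.0, its size factors in edgeR, other filters, protein-coding intervals alone, 2 groups per fit, a replicate block, leaving out libraries, and members free of overlaps. Tested on simulated data for siRNA-1 against scrambled (24180 genes), the edgeR step recovered 35 of 50 genes changed 1.25-fold and 45 of 50 changed 1.5-fold, and called 13 of 23980 unchanged genes. Far fewer genes were changed there than were called in the data, with rises and falls equal in number. The simulation therefore did not test the scaling under changes as wide as those seen here, and its error rate may not carry over.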

Additional observations from a re-analysis of the deposited data

Results flagged for a closer look

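In 9 of the 105 groups of 4 libraries formed by the 35 genes, 1 library stood apart from the other 3 by Dixon's test, which chance alone does in about 1 in 20 groups. Replicate 1 of siRNA-2 was this library for 6 genes: highest for ATF3 (12.7 CPM), CEBPB (75.9 CPM), CHAC1 (6.68 CPM) and SLC3A2 (207 CPM), and lowest for PDIA4 (297 CPM) and HERPUD1 (34.3 CPM). It was also the highest siRNA-2 library for 13 of the 35 genes and the lowest for 18. SHMT2 was highest in scrambled replicate 2 (171 CPM) and lowest in siRNA-2 replicate 4 (158 CPM), and SEL1L was lowest in scrambled replicate 1 (63.2 CPM).

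The effect of siRNA-2 differed from that of siRNA-1, by the direct edgeR test between them, for 4 genes called in opposite directions against scrambled. The log2 difference, siRNA-2 over siRNA-1, was -0.31 for PSAT1, 0.39 for MTHFD2, -0.46 for SLC7A5 and 0.72 for PDIA4.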

How the results depend on the processing

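No direction called for a member reversed under any alternative run. Of all genes tested, 53.3% were called with siRNA-1, 56% with siRNA-2 and 32.5% between the siRNAs. Among the 15 members overlapping no other tested interval, a smaller set by construction, 11 were called with siRNA-1 (7 higher, 4 lower), 12 with siRNA-2 (8 and 4) and 7 between the siRNAs (3 higher). By arm, ATF4 arm genes higher were 4, 4 and 1 and lower 0, 1 and 1, XBP1 arm genes higher were 0 with siRNA-1 and 1 with siRNA-2, and ATF6 arm genes higher were 3, 3 and 1. With protein-coding intervals only, 1 ATF6 arm gene was higher with siRNA-1. XBP1 arm genes higher with siRNA-2 were 1 with DESeq2, its size factors, no filter, protein-coding intervals only or only the 2 groups compared. With no filter, 0 ATF6 arm genes were lower between the siRNAs. Without the 2 libraries richest in ribosomal RNA, XBP1 arm genes higher with siRNA-2 were 1, and members lower between the siRNAs were 3 (XBP1 arm 1, ATF6 arm 0).

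Leaving out libraries in turn gave 23 to 27 members called with siRNA-1 (13 to 18 higher, 8 to 11 lower; ATF6 arm 2 to 6 higher), 25 to 29 with siRNA-2 (17 to 21 and 8 to 9; XBP1 arm 1 to 3 higher) and 12 to 15 between them (8 to 10 and 3 to 6; XBP1 arm 1 to 3 and ATF6 arm 0 to 1 lower). With the replicate number as a block, 26, 27 and 15 members were called, and ASNS with siRNA-2 and MANF with siRNA-1 missed the threshold (adjusted p = 0.0557 and 0.0524). Same-numbered libraries of different groups correlated at -0.122 to 0.108, and differently numbered ones at -0.295 to 0.205. No pairing by number was thus seen, but with so few libraries a weak one could not be told from none. The largest shift of the median of all genes was -0.04, for siRNA-1 with protein-coding intervals only. That setting ended the siRNA-1 calls of DDIT3, HSPA5, CALR, HERPUD1, MANF and CRELD2 (adjusted p = 0.0501 to 0.154). With siRNA-2 it ended those of XBP1, HERPUD1 and MANF. By read number, overlapping genes could share all reads of ASNS, ATF5, CEBPB, DDIT3, PPP1R15A, SHMT2 and, over 23 bases only, DNAJB9; the cause of the other moves was not tested.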
